A study of Rattus norvegicus with 62 samples.

Results

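The comparison concerns hearts of male Wistar rats that received rosiglitazone by mouth at 80 mg/kg/day for 14 days, sampled 336 h or 168 h after the last dose according to the sample labels. Since 336 h is also the length of 14 days of dosing, the times are used as labelled, and whether they were counted from the last dose could not be checked in the files. Its members are the 11 arrays titled for that dose and those times, 5 at 336 h and 6 at 168 h, out of 62 arrays in the series. The same time contrast was available in 10 arrays of rats given vehicle (0 mg/kg/day; 5 at 336 h and 5 at 168 h) and in 11 arrays of rats given 10 mg/kg/day (6 at 336 h and 5 at 168 h). Arrays at 6 h and 24 h entered the normalization between arrays, the signal filter, the array clusters and the choice of the brightest probe set. They also entered the shared estimate of spread and the choice of early responders, but were not averaged into the 168 h and 336 h means. All rats were of 1 strain and sex, no allele or transgene was involved, and the labels give no age and do not say that each sample came from its own animal, so the p-values reflect only how these samples vary, which may be technical in part. The tissue was cardiac muscle cut along the long plane of the animal, and the labels name no chamber. The comparison asks whether the expression response to the drug grows or fades between the later sampling times. Each value is the log2 of a deposited array signal after quantile normalization between arrays, and a probe set, which is a group of short probes for a transcript, was called when limma's Benjamini-Hochberg adjusted p was under 0.05.

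Rosiglitazone belongs to the thiazolidinediones, agonists of PPAR gamma. This nuclear receptor binds DNA together with a retinoid X receptor and switches on genes of lipid uptake and storage. In the heart, PPAR gamma has been studied in endothelial cells and in the few fat cells, among other cells. The related PPAR alpha governs fatty acid oxidation in cardiomyocytes. Known targets of the drug include the fatty acid binding proteins Fabp4 and Fabp5 and the lipase anchor Gpihbp1, and fluid retention and heart failure are recognised adverse effects of the class. In a bulk tissue such as this, fewer cells of a type and less RNA per cell cannot be told apart.

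The arrays did not form groups by dose, but those of 336 h lay together. On the first 2 principal components, which carried 14.4% and 8.94% of the variance, the 62 arrays fell into 3 clusters, called A, B and C here. All 5 arrays of 80 mg/kg at 336 h lay in cluster B, as did all 5 of vehicle and all 6 of 10 mg/kg at that time. At 168 h the 80 mg/kg arrays were spread, with 3 in cluster A, 1 in B (replicate 3) and 2 in C; vehicle had 3, 1 (replicate 3) and 1, and 10 mg/kg had 3, 0 and 2. As deposited, the 80 mg/kg arrays had 2% trimmed mean signals between 145 and 206 at 336 h and between 99.0 and 169 at 168 h, a difference of 51.3 (exact two-sided permutation test p = 0.0195, adjusted over 4 array measures 0.0779; smallest p allowed 0.00216). The 3′ minus 5′ differences of the hexokinase, actin and GAPDH control probe sets, which register RNA integrity, gave exact permutation p of 0.576, 0.950 and 0.260. At 168 h the hexokinase difference was 1.38, 1.70 and 1.81 in cluster A, 1.42 in B, and 2.49 and 2.09 in C. At 336 h it ran from 1.56 to 2.25. A test of group means does not register such a split within a group. The part of RNA integrity in the clusters was not tested. Markers of ventricular cardiomyocytes were high in all 11 arrays, with the mean of 9 genes between 12.87 and 12.98 at 168 h and between 12.88 and 12.94 at 336 h (log2). Time and array cluster thus nearly coincide, and what belongs to each cannot be told apart in most arrays.

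**Figure D1:**
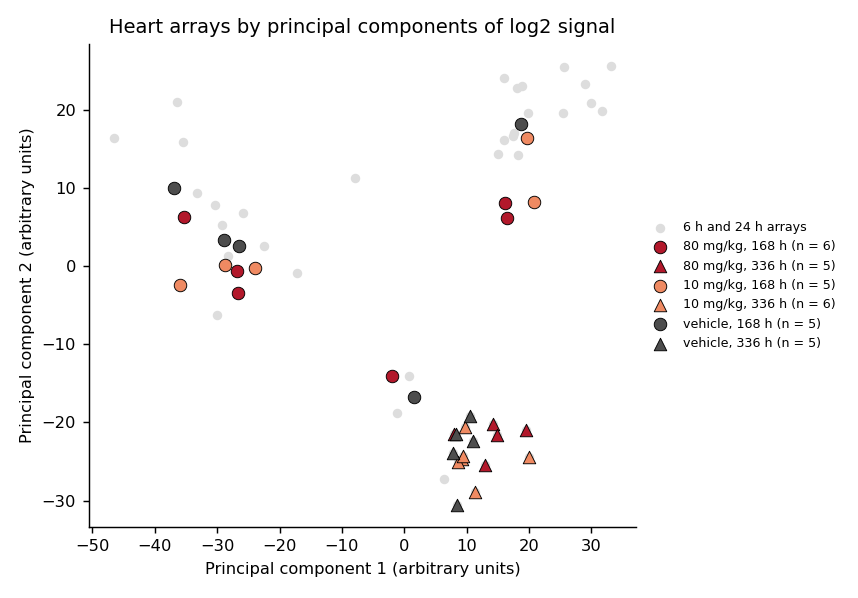
Positions of the 62 heart arrays on the first 2 principal components of quantile-normalized log2 signal (arbitrary units); colour is the dose, circles are 168 h, triangles 336 h, and grey points are 6 h and 24 h arrays. All 16 arrays of 336 h lie together in the cluster at the bottom, whereas the 168 h arrays are spread over 3 clusters.

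Between 168 h and 336 h, hearts of rats given 80 mg/kg lost signal for the growth hormone receptor Ghr, for the titin gene Ttn and for the fatty acid translocase Cd36, and gained signal for the lipase Mgll, the lipid droplet protein Plin5 and the endothelial nitric oxide synthase Nos3. Each of these 6 genes moved in the same direction in vehicle hearts, where all 6 were called too, but the vehicle arrays share the clusters above. None of the 6 kept its call when the array cluster was fitted as a block. These changes are relative to the other probe sets of each array. Across the array, 562 of 18625 tested probe sets were called at 80 mg/kg (3.02%), 207 higher at 336 h (1.11%) and 355 lower (1.91%). They carried 419 named genes, and their median size was 0.52 on the log2 scale, with 47 of them changing by at least 1. The same contrast called 848 probe sets in vehicle (4.55%) and 951 at 10 mg/kg (5.11%).

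Among probe sets called at 80 mg/kg, the direction was mostly shared by all 3 dose groups, which have no array in common. Of the 562 probe sets called at 80 mg/kg, 553 had the same sign in vehicle (98.4%) and 545 at 10 mg/kg (97.0%). The share of equal sign over all tested probe sets was not counted, so these percentages have no background beside them. In vehicle 233 were called as well, which is 41.5% of the 80 mg/kg list and 27.5% of the vehicle list, and all 233 went the same way, 67 higher and 166 lower. At 10 mg/kg 269 were called (47.9% of the 80 mg/kg list and 28.3% of the other), again all in the same direction. A core of 163 probe sets for 125 genes was called in all 3 groups, 48 higher and 115 lower at 336 h. Probe sets called higher at 80 mg/kg had a median of 0.57 there, 0.41 in vehicle and 0.44 at 10 mg/kg, and those called lower had medians of −0.50, −0.38 and −0.38. Selection at 80 mg/kg favours a larger median in that group. Over all tested probe sets the change at 80 mg/kg correlated with that in vehicle at r = 0.51 and with that at 10 mg/kg at r = 0.55, a description across probe sets of arrays that share the clusters above.

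**Figure D2:**
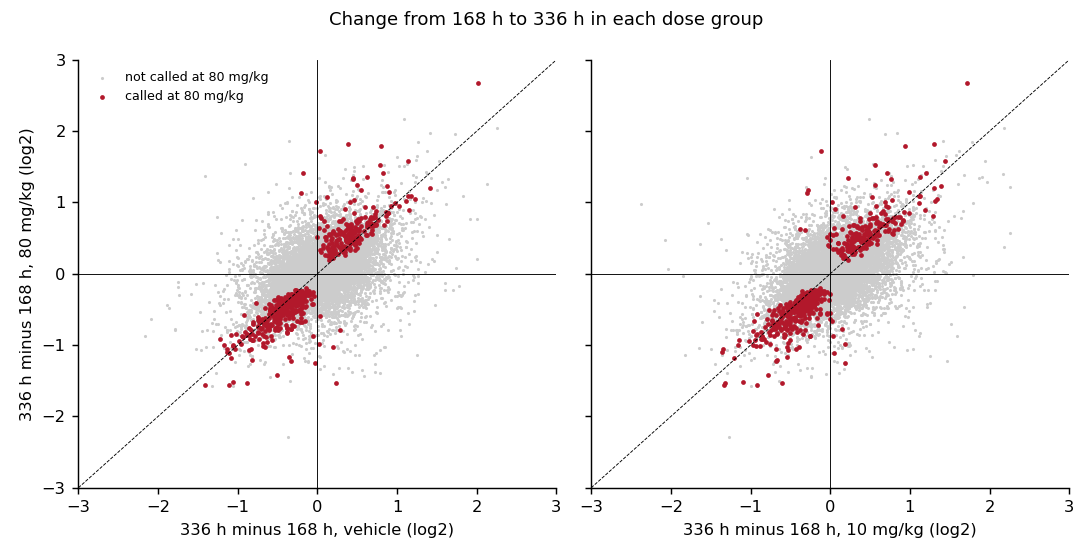
Change from 168 h to 336 h (log2) at 80 mg/kg on the vertical axis against the change in vehicle (left) and at 10 mg/kg (right) for 18625 probe sets; red points were called at 80 mg/kg and the dashed line marks equal change. The 562 red points lie almost all in the quadrants of equal sign, 553 of them against vehicle.

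How many probe sets were called depended strongly on single arrays and on the clusters. Leaving out 1 array of 80 mg/kg at 168 h gave 107 calls without replicate 2, 297 without replicate 4 and 298 without replicate 6, which lie in cluster A. It gave 539 without replicate 1 and 496 without replicate 5, which lie in cluster C. The count was 858 without replicate 3, the array that lies in cluster B. Leaving out 1 array at 336 h gave 215, 252, 360, 221 and 234 calls without replicates 1 to 5. The vehicle count ran from 145 without replicate 2 to 1677 without replicate 3 at 168 h. With the cluster as a block 4 probe sets were called at 80 mg/kg, 0 in vehicle and 2 at 10 mg/kg. On the deposited scale, without normalization between arrays, the median of all probe sets was 0.49 higher at 336 h, and 2061 probe sets were called higher and 3 lower in place of 207 and 355, so every change given here is relative to the other probe sets of the array.

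Among the 15 largest rises at 80 mg/kg, Mgll and Rflnb kept their call in all 11 fits that left out an array. Mgll, the enzyme that cleaves monoacylglycerol in the last step of fat breakdown, had log2 signals of 9.47, 9.85, 8.84, 9.43 and 9.27 at 336 h, against a lowest of 6.41, a median of 7.86 and a highest of 8.92 at 168 h. Its groups overlapped through 1 array at 336 h, and the rise of 1.58 ± 0.32 (SE) had a limma adjusted p of 0.00666. Vehicle hearts gained 1.13 and 10 mg/kg hearts 1.43 for the same probe set, both called. A better lit probe set of Mgll rose by 0.50 without being called (adjusted p = 0.110). Another, about as bright as the one used, had 0.28 (not called), against 0.94 in vehicle. The size of the Mgll change thus rests on the probe set used.

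Rflnb, an adaptor of the actin crosslinker filamin, rose by 1.36 ± 0.26 (adjusted p = 0.00373) from a mean of 5.86 ± 0.58 (SD, n = 6) to 7.22 ± 0.30 (n = 5), with no overlap of the arrays. Tspan17, a membrane tetraspanin, rose by 1.17 ± 0.29 and Phospho1, a phosphatase of phosphocholine, by 1.09 ± 0.27, both without overlap. Phospho1, the antiproliferative Tob2 (1.21) and the membrane protein Wbp1l (1.09) were called in all 3 dose groups. The brightest Wbp1l probe set had −0.06 at 80 mg/kg (not called), so the rise of Wbp1l rests on a dimmer one. Gsk3b, the kinase that restrains glycogen synthesis, rose by 1.41 ± 0.40 with overlapping groups and lost its call in 10 of 11 fits that left out an array. Stard10, a phospholipid carrier that is richer in atria, rose by 1.35 ± 0.39 and lost it in 10 as well. Zfp444 (1.33) and Tmub2 (1.24) completed the group whose means lay above the filter level of 5.03.

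The other 5 of these rises started from signals under that level, where MAS5 values are unsteady, so their sizes are uncertain. The splicing-associated factor Scaf1 went from a mean of 4.03 ± 1.001 (SD, n = 6) to 6.70 ± 0.16 (n = 5), a difference of 2.67. The guidance factor Sema3f (1.82), the ubiquitin ligase Marchf9 (1.79), Rsbn1l (1.52) and the tyrosine kinase Fer (1.13) behaved alike in that their 168 h means lay between 3.90 and 4.51. For Fer the change had the opposite sign in vehicle (−0.20) and at 10 mg/kg (−0.29), neither called there, and against the single 168 h array of cluster B it was −0.41 at 80 mg/kg.

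The 15 largest falls included receptors, RNA-binding proteins and a regulator of amino acid breakdown. Ghr, through which growth hormone acts, had log2 signals of 7.73, 7.81, 8.19, 7.56 and 7.75 at 336 h, against a lowest of 8.62, a median of 8.97 and a highest of 9.33 at 168 h. The groups did not overlap, the difference was −1.21 ± 0.21 (adjusted p = 0.00089), and the call held in all 11 fits that left out an array. Ghr fell by 0.82 in vehicle and by 0.66 at 10 mg/kg, both called. A dimmer Ghr probe set had a difference of −0.23.

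Calcrl, the receptor core for adrenomedullin and the calcitonin gene-related peptide, fell from 6.53 ± 0.28 (SD, n = 6) to 5.003 ± 0.81 (n = 5), and its other probe set had a difference of −1.57 that was not called. Calcrl was called at 10 mg/kg (−1.32) and had a difference of −0.89 in vehicle that was not. Ireb2, the iron regulatory protein that controls transferrin receptor and ferritin mRNAs, fell by 1.18 on the log2 scale, Rab14, a GTPase of endosomal transport, by 1.10 and Mbnl1, a splicing regulator of muscle, by 1.01. Those 3 genes were called in all 3 dose groups, with no overlap at 80 mg/kg. The sizes for Rab14 and Mbnl1 depend on the probe set: the brightest of Mbnl1 had −0.12 (not called) and another −0.64 (called), and 3 further Rab14 probe sets had −0.25, −0.27 and −0.10, none called. Ppm1k, the phosphatase that activates the breakdown of branched-chain amino acids, fell by 1.06 in a probe set far dimmer than its brightest (−0.24, not called). The AMPK partner Fnip1 fell by 1.02 and by 0.89 in its 2 probe sets, both called. Gpbp1 (−1.56) was called in all 3 groups, and Tmem47, a junction protein, fell by 1.52 with every array of 336 h under every array of 168 h. The brightest probe sets of Gpbp1 and Tmem47 had −0.22 and −0.24, neither called.

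The rest of these falls ended at means under or close to the filter level. They were the synaptic and muscle scaffold Homer1 (−1.56), Lgi3 (−1.53), Il1rap, the shared coreceptor of interleukin 1 (−1.26), Wdr44 (−1.23) and the RNA-binding protein Syncrip (−1.05). Tnrc6c, which acts in silencing by microRNAs, fell by 1.41 to a mean of 5.47 ± 0.83 (SD, n = 5). Other probe sets of Lgi3, Il1rap, Wdr44 and Tnrc6c had differences between −0.19 and −0.03 that were not called, whereas brighter ones of Homer1 (−0.30 and −0.77) and Syncrip (−0.48 and −0.74) were called. Another brighter Syncrip probe set had −0.38 and was not called. Il1rap had differences of −0.03 in vehicle and 0.19 at 10 mg/kg, and Lgi3 of 0.23 and −0.60, none called. Fsd1l was singled out after its values were seen because its adjusted p of 5.78e-06 was the smallest of the contrast: it fell by 0.81 on the log2 scale at 80 mg/kg, by 0.38 in vehicle and by 0.42 at 10 mg/kg. Its brightest probe set had −0.22 (not called). Fsd1l alone of the 51 called genes named here kept its call with the array cluster as a block (−0.57, adjusted p = 0.0490).

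**Figure D3:**
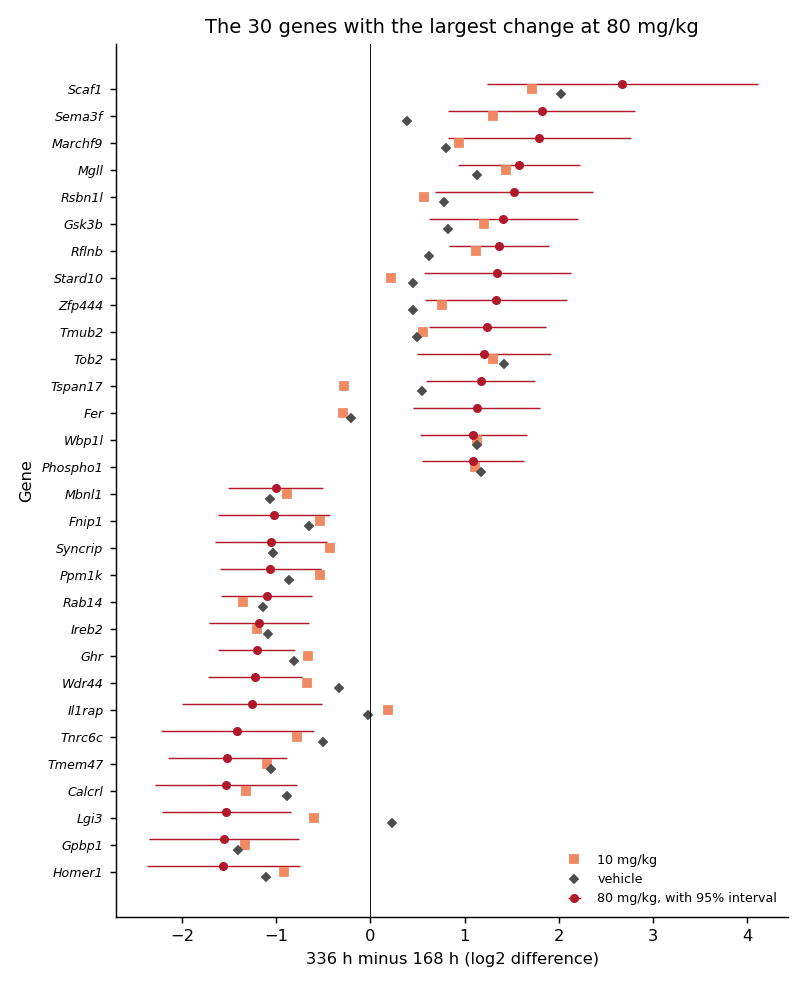
Difference between 336 h and 168 h (log2) for the 15 largest called rises and 15 largest called falls at 80 mg/kg, with limma's 95% interval in red, and the differences at 10 mg/kg (squares) and in vehicle (diamonds). The 3 groups lie on the same side of 0 for all 30 genes other than Tspan17, Fer, Lgi3 and Il1rap.

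Among genes of fuel use, Cd36 and Suclg2 fell and Plin5, Acads, Idh3a and Pfkl rose at 80 mg/kg, with the sign of Suclg2 turned on the deposited scale. Of 524 tested members of 42 gene lists, 20 were called at 80 mg/kg (against 2.92% of all 10557 tested genes, of which 163 were higher and 145 lower). Cd36, which brings long-chain fatty acids into cardiomyocytes, had log2 signals of 11.69, 12.12, 12.01, 11.99 and 12.01 at 336 h, against a lowest of 12.36, a median of 12.75 and a highest of 12.80 at 168 h. The groups did not overlap, and the difference of −0.68 (95% interval −1.03 to −0.33, adjusted p = 0.0255) stood beside −0.74 in vehicle and −0.61 at 10 mg/kg, both called. Cd36 lost its call without replicate 2 at 168 h (adjusted p = 0.0721) and without replicate 1 or 4 at 336 h (0.0807 and 0.0518).

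Plin5, which coats lipid droplets next to mitochondria, rose by 0.83 ± 0.20 at 80 mg/kg and was called in all 3 dose groups. Acads, which oxidises short-chain acyl-CoA, rose by 0.61, the tricarboxylic acid cycle enzyme Idh3a by 0.54 and the glycolytic Pfkl by 0.78, whereas the succinyl-CoA ligase subunit Suclg2 fell by 0.27. Idh3a lost its call in 9 and Pfkl in 4 of the 11 fits that left out an array. Plin5 and Acads lost it in 1 each, and Suclg2 kept it in all. The other 19 tested members of fatty acid uptake and storage ran from −0.20 to 0.50, and the list had a median of 0.09 over its 21 members. Fatty acid oxidation had 1 call among 22 members (median 0.04), oxidative phosphorylation 0 among 27 (median 0.00) and the PPAR alpha fasting targets 0 among 9 (median 0.17). Glucose uptake and glycolysis had 1 call among 21, with 18 positive (median 0.18), and 17 positive in vehicle (median 0.19). Over all genes the median was 0.03 and 54.6% were positive.

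Among receptors and coactivators, Ppargc1a, the coactivator of mitochondrial biogenesis, fell by 0.67, while its partner Esrra rose by 0.61 and the retinoid X receptor Rxrb by 0.94. A Ppargc1a probe set of similar brightness had −0.24 and a dimmer one −0.23, neither called. Ppargc1a lost its call in 7, Rxrb in 8 and Esrra in 4 of the 11 fits that left out an array. Pparg itself, the target of the drug, had a difference of 0.27 and Ppara of 0.23, neither called. Nr1d2, a repressor of the circadian clock, fell by 0.71 and was the only 1 of 16 tested clock genes that was called at 80 mg/kg. Its call was lost in 7 of the 11 fits that left out an array. Ppargc1a also fell in vehicle, by 0.63.

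Called members of the contractile lists changed by less than the median of all called probe sets. Ttn fell by 0.38 ± 0.07 (adjusted p = 0.00115) without overlap and by 0.39 in vehicle, and the calcium handling genes Slc8a1, the sodium-calcium exchanger, and Camk2d, a calcium-dependent kinase, fell by 0.29 and 0.24. The chaperone Hspa5 fell by 0.32 and lost its call in 9 of the 11 fits that left out an array. On the deposited scale Suclg2, Slc8a1, Camk2d and Hspa5 had the opposite sign, between 0.18 and 0.29, and Ttn lay at −0.02. Nos3 rose by 0.95, the extracellular superoxide dismutase Sod3 by 0.66 and the stress factor Atf4 by 0.32. Nos3 lost its call in 1, Sod3 in 8 and Atf4 in 6 of the 11 fits that left out an array. The heart failure markers Nppa, Nppb, Myh6 and Myh7 had differences of −0.17, −0.45, −0.06 and −0.03 and were not called.

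The list medians that follow are a description, without a test. The highest of the 42 lists was that of glucocorticoid and FoxO responsive genes, of which 13 of 16 were positive (median 0.32; 0.17 in vehicle) and none was called. In the interferon list 18 of 22 members had positive differences (median 0.25; median in vehicle −0.03), with Tap1 highest at 0.88 and none called. Of 13 macrophage markers, 10 were positive (median 0.22; −0.07 in vehicle), and Cd68 had 0.80, none called. The medians of the 3 lists were also positive with arrays scaled by their medians (0.34, 0.30 and 0.25). Extracellular matrix genes were positive in 25 of 36 (median 0.13), with Fn1 as the called member. The mean level of the macrophage markers ran from 6.75 to 7.34 at 168 h and from 7.10 to 7.29 at 336 h, so the arrays overlapped. The mean of 12 endothelial markers ran from 8.33 to 8.70 and from 8.64 to 8.89. In vehicle it also shifted, from between 8.31 and 8.68 to between 8.72 and 8.84. The mean of 10 atrial markers ran from 7.26 to 7.84 and from 7.55 to 7.97. In vehicle the atrial mean ran from 7.22 to 7.74 and from 7.23 to 7.63. The part of cell content in these medians was not tested.

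Whether the drug response itself grew or faded was tested as the change in the difference from vehicle. No probe set passed (0 of 18625, 0%; 639 at an unadjusted p under 0.05, 3.43%; smallest limma adjusted p 0.9997), and the count was 0 in all 21 fits that left out an array and with array weights. Where only cluster B was used, with 1 array for each 168 h group, 11 were called. At 168 h 10 probe sets were called against vehicle (0.0537%), 7 higher and 3 lower, and at 336 h 54 (0.29%), 46 higher and 8 lower. These counts share the arrays of the time contrast and do not show that the response differed. The change in the effect had a median SE of 0.26, against 0.18 for the change at 80 mg/kg alone.

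The genes that mark the drug in these hearts had similar levels at both times. Rbp7, a retinol binding protein of endothelium and fat, had log2 signals of 11.73, 12.52, 11.10, 12.03 and 11.83 at 336 h, against a lowest of 11.24, a median of 11.51 and a highest of 11.88 at 168 h, and vehicle arrays lay between 7.24 and 7.96. The time groups overlapped. Rbp7 stood 13.6-fold above vehicle at 168 h (95% interval 7.94 to 23.1) and 17.2-fold at 336 h (9.83 to 30.02). The change in that difference was 0.34 on the log2 scale, with an interval from −0.77 to 1.46, so a loss or gain within those limits was not resolved.

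Promoters are shown for the gene furthest above vehicle (Rbp7), the gene furthest below it (Aqp1) and 1 gene called against vehicle at the later but not the earlier time (Akap12). They are the 250 bases before the start in RefSeq on GRCr8, matched by symbol for 3 of 3 genes, with motifs in capitals. The motifs searched on both strands were AGGTCA, the hexamer that nuclear receptors bind, and TATAAA, which do not overlap in these windows.
Rbp7, chr5:165177400-165177649, minus strand: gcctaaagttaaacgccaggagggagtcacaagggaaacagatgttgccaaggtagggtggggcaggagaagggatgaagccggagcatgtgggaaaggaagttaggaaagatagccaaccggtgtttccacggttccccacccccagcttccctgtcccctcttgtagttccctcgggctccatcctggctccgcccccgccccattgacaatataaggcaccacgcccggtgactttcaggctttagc
Aqp1, chr4:85812534-85812783, plus strand: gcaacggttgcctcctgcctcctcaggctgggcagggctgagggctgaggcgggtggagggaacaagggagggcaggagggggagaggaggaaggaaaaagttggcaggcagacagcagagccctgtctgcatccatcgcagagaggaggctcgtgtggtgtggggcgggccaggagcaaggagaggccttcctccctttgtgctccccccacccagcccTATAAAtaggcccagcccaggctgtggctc
Akap12, chr1:43135265-43135514, plus strand: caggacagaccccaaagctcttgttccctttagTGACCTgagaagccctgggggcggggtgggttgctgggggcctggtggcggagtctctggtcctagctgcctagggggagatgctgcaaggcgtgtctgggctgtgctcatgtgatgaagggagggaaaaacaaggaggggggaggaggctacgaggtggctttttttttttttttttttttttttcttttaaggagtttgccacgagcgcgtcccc
The Rbp7 window holds neither motif, the Aqp1 window holds TATAAA 30 bases before the start, and the Akap12 window holds AGGTCA on the reverse strand (TGACCT) 217 bases before it. Of 33469 windows of that length 14.1% hold the first motif and 12.9% the other.

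Gpihbp1, which carries lipoprotein lipase across capillary endothelium, had signals of 10.58, 11.06, 10.20, 10.31 and 10.27 at 336 h, against a lowest of 9.75, a median of 10.16 and a highest of 10.66 at 168 h. It stood 5.35-fold above vehicle at 168 h and 6.16-fold at 336 h, a change of 0.20 (interval −0.54 to 0.95). Fabp4 stood 1.92-fold and 2.06-fold above vehicle, a change of 0.10 (−0.28 to 0.48), and Fabp5 1.72-fold and 1.76-fold, a change of 0.04 (−0.42 to 0.50). For these 4 genes of lipid handling the time groups overlapped at 80 mg/kg and the differences from 168 h, between 0.15 and 0.30, were not called.

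Aqp1, the water channel of capillary endothelium, had signals of 9.81, 9.41, 9.86, 9.50 and 9.77 at 336 h, against a lowest of 9.63, a median of 9.68 and a highest of 9.78 at 168 h. Its level at 80 mg/kg therefore differed by −0.02, with overlapping groups. In vehicle hearts Aqp1 rose by 0.42 (adjusted p = 0.0448), from between 10.88 and 11.05 to between 11.30 and 11.50, with no overlap. The gap to vehicle was −1.25 at 168 h and −1.70 at 336 h, a change of −0.44 (interval −0.79 to −0.09) that was not called. A dimmer Aqp1 probe set gave a change of −0.66.

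For a group of signalling and matrix genes the fitted difference from vehicle was larger at 336 h, though for none of them was that change called. Akap12, a scaffold of protein kinase A, had signals of 9.35, 10.02, 9.03, 9.50 and 9.62 at 336 h, against a lowest of 8.81, a median of 9.09 and a highest of 9.54 at 168 h, so the groups overlapped. It stood 1.52-fold above vehicle at 168 h, not called, and 2.18-fold at 336 h. Tnfsf10, the death ligand TRAIL, went from 1.57-fold, not called, to 2.21-fold, and the matricellular Ccn2 from 1.27-fold, not called, to 1.97-fold. The changes were 0.52 (0.11 to 0.93), 0.50 (0.04 to 0.95) and 0.63 (0.11 to 1.14), each made up of a positive difference at 80 mg/kg and a negative one in vehicle. These genes were chosen with earlier results of these data known, and the intervals do not allow for that choice. Lox, the collagen crosslinking enzyme, had a difference of −0.11 at 80 mg/kg while it fell by 0.62 in vehicle.

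Fn1, the fibronectin of the cardiac matrix, was the exception in that its own rise at 80 mg/kg was called. Its signals were 8.95, 9.24, 8.72, 8.94 and 9.16 at 336 h, against a lowest of 7.48, a median of 8.39 and a highest of 8.59 at 168 h, without overlap. The rise was 0.78 (interval 0.38 to 1.17, adjusted p = 0.0226), against 0.04 in vehicle and 0.37 at 10 mg/kg, neither called. The test of the difference between 80 mg/kg and vehicle gave 0.74 (0.16 to 1.31) and was not called. Fn1 lost its call without replicate 2 (adjusted p = 0.0995) or 6 (0.0569) at 168 h and without replicate 2 (0.0646) or 5 (0.0602) at 336 h.

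Ggt5, which cleaves leukotriene and glutathione conjugates, and Pla2g2a, a secreted phospholipase, had negative differences at 80 mg/kg that were not called. Ggt5 signals at 80 mg/kg were 6.65, 6.41, 6.13, 6.29 and 6.53 at 336 h, against a lowest of 6.37, a median of 6.51 and a highest of 6.71 at 168 h, and overlapped. In vehicle Ggt5 rose by 0.64 (adjusted p = 0.0140). Its ratio to vehicle went from 0.91 to 0.53, a change of −0.77 (interval −1.19 to −0.35), and its other probe set had a difference of 0.72 at 80 mg/kg that was not called, so the probe sets of Ggt5 disagree. Pla2g2a had signals of 8.06, 7.51, 8.20, 8.05 and 7.68 at 336 h, against a lowest of 7.66, a median of 8.44 and a highest of 8.86 at 168 h. Its change in effect was −1.32 (interval −2.27 to −0.37), with differences of −0.45 at 80 mg/kg and 0.87 in vehicle that were not called.

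**Figure D4:**
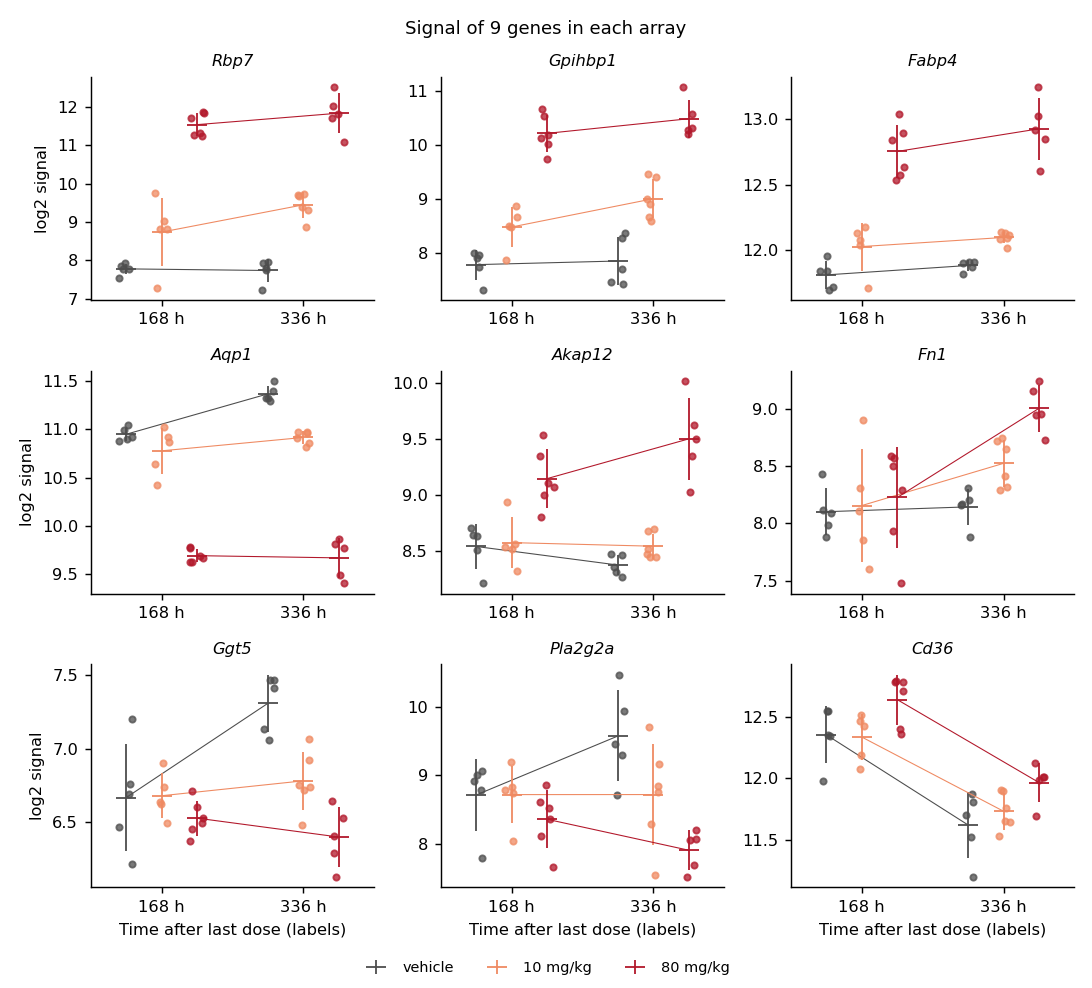
Log2 signal of 9 genes in every array of vehicle, 10 mg/kg and 80 mg/kg at 168 h and 336 h; points are arrays, horizontal marks with bars are mean and SD, and lines join the means of a dose. Rbp7, Gpihbp1 and Fabp4 stay far above vehicle at both times, Aqp1 stays below it, and Cd36 is lower at 336 h in all 3 doses.

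The 10 genes with the smallest p for the change in effect were not called either. On the positive side were Tm9sf3 (0.81), the potassium channel subunit Kcnab3 (2.07), the transcription factor Elf1 (0.56), the T cell adaptor Lime1 (2.44) and the receptor kinase Grk6 (0.56). On the negative side were Ggt5, Carmil3 (−1.92), Lgi3 (−1.76), Pigy (−1.04) and the amino acid transporter Slc6a20a (−2.17). In Tm9sf3, Kcnab3, Lime1 and Grk6 the fitted change was positive at 80 mg/kg and negative in vehicle. For the change in effect, other probe sets of Tm9sf3 gave −0.33 and 0.30, and those of Grk6 −0.16 and −0.93. Those of Pigy and Ggt5 gave 0.23 and 0.31, against negative values here. Other probe sets of Elf1 (0.57), Lime1 (0.38) and Lgi3 (−0.26 and −0.37) kept the sign. Kcnab3 and Lime1 had mean signals of 5.04 and 5.14, close to the filter level, so their sizes are uncertain.

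**Figure D5:**
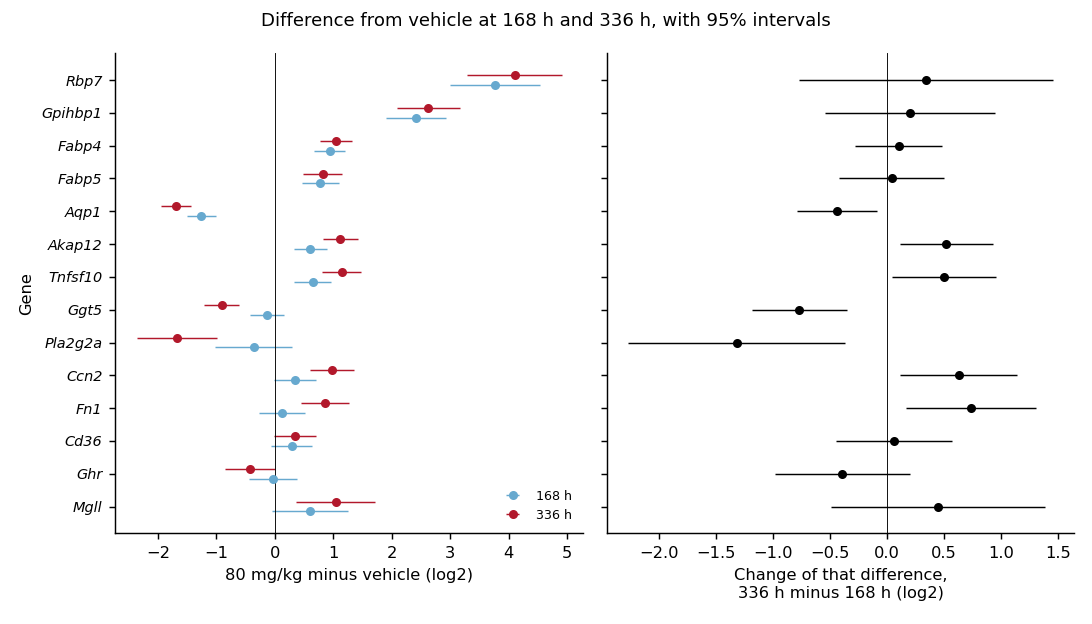
Difference between 80 mg/kg and vehicle at 168 h and 336 h (left, log2) and the change of that difference between the times (right, log2) for 14 genes, with limma's 95% intervals. Intervals of the change include 0 for Rbp7, Gpihbp1, Fabp4, Fabp5, Cd36, Ghr and Mgll. Those of the other 7 do not, but none was called after adjustment over all probe sets. The genes were chosen with earlier results of these data known, and the intervals do not allow for that choice. Mgll has the probe set called at 80 mg/kg, not its brightest, and its other probe sets gave changes of 0.25 and −0.65.

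Genes that responded early gave a check on arrays outside the comparison. At 6 h or 24 h, 33 probe sets (29 named) had been called for 80 mg/kg against vehicle. Their difference from vehicle had the early sign in 23 at 168 h and in 17 at 336 h, and was larger in the early direction at 336 h in 15. The median change, signed by the early direction, was −0.09, from 0.12 at 168 h to 0.03 at 336 h. Of the 33, 2 were called for 336 h against 168 h at 80 mg/kg (6.06%, against 3.02% of all probe sets), 1 without a gene name and Afdn, a junction protein, named after its values were seen. Afdn fell by 0.31 at 80 mg/kg and had −0.04 in vehicle. None of the 33 was called for the change in effect (limma).

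Of the early set, Rbp7, Gpihbp1 and Fabp4 were called at 6 h and 24 h and at both later times. Aqp1, called lower at 24 h, and Hrct1, called higher at 6 h, were also called at both later times. Dbp and Bhlhe40, clock output genes called higher at 24 h with differences of 1.36 and 1.44, had −0.41 and −0.10 at 168 h and −0.75 and −0.37 at 336 h, none called. The glucose transporter Slc2a3 was called at 6 h (1.21), had 0.15 at 24 h and 0.55 at 168 h, not called, and was called at 336 h (0.88). Its own rise of 0.52 at 80 mg/kg missed the threshold (adjusted p = 0.0804).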

How the data were processed

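Per the labels, RNA of cardiac muscle kept in a stabilising solution was labelled with biotin and hybridised to Affymetrix rat arrays. The authors deposited 1 intensity per probe set and array, on a linear scale, from GCOS and MAS5 per the submitters' processing notes; neither version is given in the sources used here. From 31099 probe sets, 57 controls were left out. Signals were converted to log2 and quantile normalized, because the arrays differ in scale (trimmed mean 83.5 to 247). Probe sets with a mean log2 signal at or above the 40th percentile (5.03) were kept, 18625 in all, of which 14260 had 1 gene name in the platform annotation.

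A model with 12 means, 1 for each dose and time, was fitted to the 62 arrays with limma 3.58.1 in R 4.3.3 (50 residual degrees of freedom). Two-sided p-values were adjusted by Benjamini-Hochberg over all kept probe sets, with calls under 0.05. The fit was tested on simulated data. The number of arrays limits the precision. No arrays held identical values.

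Clusters of arrays came from k-means with 3 centres on 2 principal components. List values use the brightest kept probe set of a gene. The rule named the 15 largest called rises and falls at 80 mg/kg, the 5 smallest p-values each way where nothing was called, up to 4 called members of each list, and a set of drug genes. It also named the 8 largest called each way in vehicle and at 10 mg/kg, which are described here only where they are 80 mg/kg genes. The members and gene lists were chosen with earlier results of these data known. Alternatives covered scaling, filter, samples fitted, array weights, replicate block, array cluster, control probe covariates and leaving out arrays.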

Additional observations from a re-analysis of the deposited data

Results flagged for a closer look

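Of 64 groups of arrays examined for a single value far from the rest, 1 was found, and about 5% of groups are found by chance. In vehicle at 168 h, Pla2g2a lay at 7.79 in replicate 4, whereas the nearest of the other 4 arrays lay at 8.79 and the highest at 9.06 (log2 signal).

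Of 14 genes compared between 80 mg/kg and vehicle, Pla2g2a was also the single gene for which every array of 336 h lay under the 168 h mean at 80 mg/kg and above it in vehicle. The lowest vehicle array of 336 h lay at 8.714, barely above the vehicle mean of 8.713 at 168 h. That mean includes the low value of replicate 4, so this flag is not independent of the first. The fitted change in effect was −1.32, from −0.45 at 80 mg/kg and 0.87 in vehicle, and limma did not call it (adjusted p = 0.9997).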

How the results depend on the processing

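The call counts for the time contrasts moved with most choices. On the signals as deposited the counts were 2064 at 80 mg/kg, 0 in vehicle, 9395 at 10 mg/kg, 3 for 80 mg/kg against vehicle at 168 h, 5 at 336 h and 86 list members; there Suclg2 (0.24), Slc8a1 (0.21), Camk2d (0.29), Hspa5 (0.18) and Afdn (0.21) turned sign at 80 mg/kg. With arrays scaled by their median the counts were 67, 135 and 207 for the 3 time contrasts and 4 list members. Without a filter they were 238, 385 and 532, and 6 against vehicle at 168 h. With only the arrays of the groups compared they were 221 at 80 mg/kg, 0 in vehicle and 27 against vehicle at 336 h, and with array weights 1059, 2238 and 232. Blocking on the array cluster, they were 4, 0 and 2, and 19 against vehicle at 168 h. Within cluster B, where each 168 h group had 1 array assumed to vary like the others, they were 47 (43 higher and 4 lower; 4 of the 562 were among them), 36 in vehicle, 11 for the change in effect and 22 against vehicle at 168 h, and Fer had −0.41; 10 mg/kg gave no value. With control probe covariates 856 were called at 80 mg/kg.

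Leaving out 1 array gave 107 to 858 calls at 80 mg/kg, 145 to 1677 in vehicle, 459 to 1249 at 10 mg/kg, 0 to 0 for the change in effect, 5 (without vehicle replicate 5) to 12 against vehicle at 168 h and 33 (without 80 mg/kg replicate 1) to 66 at 336 h. Of 51 called genes named here, 10 kept their call in each such fit, 21 lost it in 5 or more of the 11, and 0 changed sign. The 51 include Plpp1, named after its values were seen. It had 0.90 at 80 mg/kg (called), and 0.35 in vehicle and 0.05 at 10 mg/kg, neither called. A brighter Plpp1 probe set had 0.27 at 80 mg/kg and was not called. The change in effect stayed at 0 calls in every alternative other than the fit within cluster B.

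Same-numbered arrays of 168 h and 336 h correlated between 0.00898 and 0.0997 in their deviations at 80 mg/kg, so the numbers were not taken as pairs. With the replicate block 456 probe sets were called at 80 mg/kg, 1181 in vehicle, 910 at 10 mg/kg, 0 for the change in effect, 12 against vehicle at 168 h and 53 at 336 h, and 9 of the 51 genes lost their call. A median SE of 0.26 for the change in effect, and signals near the filter level, limit what could be seen.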
